A study of Mus musculus with 6 samples.

Results

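Splicing factors of 8 families were compared between mouse embryonic stem cells depleted of the long noncoding RNA Panct1 and control cells. They are the SR proteins, the hnRNP proteins, the SF3 and U2AF proteins, and the regulators of the RBFOX, PTB, MBNL and ESRP families. The genes were chosen by a symbol pattern, with earlier results of these data known. Each was represented by its brightest probe set among those with exactly 1 symbol, which gave 52 of the 18193 genes measured. They comprise 10 SR genes, 19 hnRNP genes, 9 SF3 genes, 3 genes each of U2AF, RBFOX, PTB and MBNL, and 2 ESRP genes. The symbol pattern also fits Srsf7, Hnrnpa3 and Hnrnpa1l2-ps2 in RefSeq, and these were not analysed here as genes of their own.

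Introns are recognised when U2AF binds the end of the intron and helps the U2 snRNP, with its SF3A and SF3B subunits, to settle on the branch point. SR proteins usually bind exonic enhancers and favour inclusion of an exon, whereas hnRNP proteins often act against them. RBFOX, PTB, MBNL and ESRP proteins bind short motifs near particular exons and set splicing patterns that differ between tissues. MBNL proteins are known for holding back the exon choices typical of pluripotent cells, and ESRP proteins for promoting exons used in epithelia.

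All 6 samples were Oct4-Gip ES cells, which carry a fluorescent and drug-resistance reporter under Oct4 control, kept in medium with serum and LIF. In the 3 knockdown samples, 60000 cells were transfected with 800 ng of Panct1 esiRNA (many short interfering RNAs cut from a longer duplex), and in the 3 control samples with esiRNA against Luciferase, which mouse cells lack. RNA was taken 72 h later and hybridised to Affymetrix Mouse 430 version 2 arrays. Whether the replicates were separate cultures is not stated in the labels. The p-values therefore cover the spread among these 6 samples and no more, and that spread may be technical. Values are log2 signals, and a difference is knockdown minus control on that scale, with a limma p adjusted over all genes and a threshold of 0.05. A signal is specific to its probe set and was not read as the abundance of one gene against another.

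The median signal of each array lay between 6.07 and 6.09, and arrays of the same group correlated at 0.997 to 0.998 against 0.991 to 0.993 across groups. The 10 ES cell markers gave signals from 10.4 to 14.6, and 5 of them fell. Of 10 trophectoderm markers 8 rose, and their mean signal was 7.52 to 7.61 on the control arrays and 8.72 to 8.74 on the knockdown arrays. Of 10 fibroblast and feeder markers 3 rose, with a mean signal of 5.62 to 5.70 in controls and 5.78 to 5.83 after knockdown. Beside these counts, 12.9% of all genes rose and 11.3% fell. The part of these markers in the splicing factor results was not tested, and in bulk RNA more cells of a type and more RNA per cell cannot be told apart. No probe set was named Panct1, so its depletion was not checked here.

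Most of the splicing factors did not pass the test, and those that did were mainly tissue-type regulators. Of the 52 genes, 6 rose (Mbnl1, Mbnl2, Mbnl3, Esrp1, Ptbp3 and Rbfox3), 1 fell (U2af1l4, a relative of the small U2AF subunit) and 45 did not pass, which is 13.5% called beside 24.2% of all genes. Each of the risen genes belongs to the 11 RBFOX, PTB, MBNL and ESRP genes, of which 54.5% were called, with a median difference of 0.44. Of the 41 SR, hnRNP, SF3 and U2AF genes, 2.44% were called, with a median difference of -0.06. Over all genes 12.9% rose and 11.3% fell, with a median of -0.02. The 11 regulators had a median signal of 8.13, against 7.24 over all genes. In a fit over only the 12027 genes brighter than the median probe set, 4437 were called. In that fit the same 6 splicing factors rose and 6 fell (U2af1l4, U2af2, Ptbp2, Srsf5, Hnrnph1 and Hnrnph3). The core factors also gave bright probe sets, and among the 991 genes at or above the median signal of the 52, 21.8% were called, with 8.48% that rose and 13.3% that fell.

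**Figure D1:**
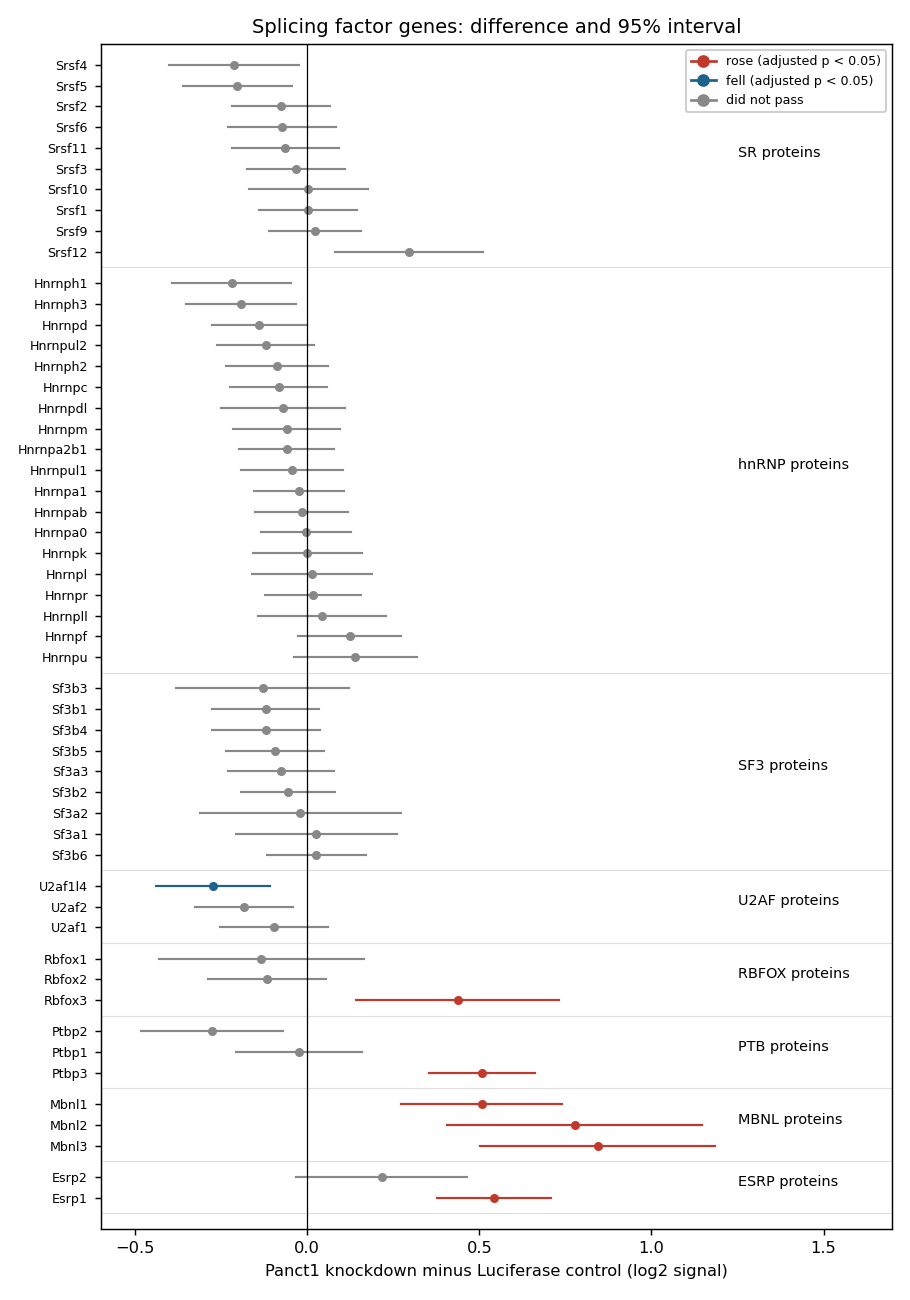
Difference in log2 signal, knockdown minus control, of the 52 splicing factor genes, grouped by family, with its 95% interval from limma (3 arrays per group). The MBNL genes stand to the right of 0 with differences from 0.51 to 0.84, whereas the SF3 genes lie between -0.13 and 0.03.

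The 3 muscleblind genes rose together. They encode zinc-finger proteins that bind YGCY-type RNA motifs and repress or activate exons according to where they bind. Mbnl3 was measured at 8.88, 8.59 and 8.19 on the knockdown arrays and at 7.62, 7.79 and 7.72 on the control arrays. The mean went from 7.71 ± 0.09 to 8.55 ± 0.35 (SD, n = 3 arrays each), a difference of 0.84 with an SE of 0.15, or 1.79-fold, at a limma adjusted p of 0.00363. Every knockdown array lay above every control array, although the knockdown arrays were spread more widely. Mbnl2 was measured at 9.53, 9.17 and 8.88 after knockdown against 8.19, 8.43 and 8.63 in controls. Its difference was 0.78 with an SE of 0.16, or 1.71-fold (limma adjusted p = 0.00839), and here too the groups did not overlap. Mbnl1, the most studied member and the protein sequestered by expanded repeats in myotonic dystrophy, gave 8.55, 8.33 and 8.17 after knockdown. Its control values were 7.74, 7.83 and 7.96, all of them lower, and the difference was 0.51 with an SE of 0.10, or 1.42-fold (limma adjusted p = 0.00713).

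In each of the 3 genes, knockdown replicate 1 gave the highest signal and knockdown replicate 3 the lowest. The controls ran the other way for Mbnl1 and Mbnl2, with replicate 1 lowest and replicate 3 highest. For Mbnl3, control replicate 1 was lowest and control replicate 2 highest. With any 1 array left out, the 3 genes still passed, with differences of 0.41 to 0.60 for Mbnl1, 0.61 to 0.93 for Mbnl2 and 0.68 to 1.02 for Mbnl3. When limma's test asked for a change of more than 1.2-fold, which 7.03% of all genes passed, Mbnl3 still passed and Mbnl1 and Mbnl2 did not (adjusted p = 0.033, 0.217 and 0.0796). Single probe sets of the genes did not all move alike. The 3 probe sets of Mbnl3 rose, by 0.84, 0.89 and 0.42. Of the 5 sets of Mbnl2, 2 rose, by 0.78 and 1.00, and the others differed by 0.21, 0.09 and 0.00. For Mbnl1 only the brightest of 3 sets rose, and the others, whose mean signals were between 3.78 and 5.56 in both groups, differed by -0.10 and -0.06. Averaged over its probe sets, Mbnl1 differed by 0.12 and did not pass (limma adjusted p = 0.215), and Mbnl2 differed by 0.42.

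The upstream sequences of the muscleblind genes are shown because these genes moved together. Each is the 250 bases before a RefSeq transcription start in GRCm38.p6, read in the direction of the gene. Capitals mark matches, on either strand and with overlapping matches counted, to the GC box GGGCGG, the E-box CACGTG or the CCAAT box.
Mbnl1, first start, chr3:60472580-60472829, plus strand: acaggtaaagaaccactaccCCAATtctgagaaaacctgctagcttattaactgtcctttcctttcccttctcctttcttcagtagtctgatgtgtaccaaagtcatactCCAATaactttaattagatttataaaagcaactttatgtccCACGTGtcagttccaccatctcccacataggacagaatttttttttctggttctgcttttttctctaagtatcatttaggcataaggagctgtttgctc
Mbnl1, downstream start, chr3:60500929-60501178, plus strand: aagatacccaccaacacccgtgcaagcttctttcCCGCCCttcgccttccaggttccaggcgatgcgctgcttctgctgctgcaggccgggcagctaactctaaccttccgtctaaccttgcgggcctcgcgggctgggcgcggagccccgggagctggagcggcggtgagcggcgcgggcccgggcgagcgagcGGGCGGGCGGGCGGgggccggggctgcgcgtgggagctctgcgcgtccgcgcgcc
Mbnl2, chr14:120275419-120275668, plus strand: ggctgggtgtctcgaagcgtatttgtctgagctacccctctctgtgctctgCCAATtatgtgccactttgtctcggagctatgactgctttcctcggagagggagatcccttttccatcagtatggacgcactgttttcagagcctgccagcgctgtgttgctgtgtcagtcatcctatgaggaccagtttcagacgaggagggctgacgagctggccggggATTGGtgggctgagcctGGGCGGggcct
Mbnl3, chrX:51205991-51206240, minus strand: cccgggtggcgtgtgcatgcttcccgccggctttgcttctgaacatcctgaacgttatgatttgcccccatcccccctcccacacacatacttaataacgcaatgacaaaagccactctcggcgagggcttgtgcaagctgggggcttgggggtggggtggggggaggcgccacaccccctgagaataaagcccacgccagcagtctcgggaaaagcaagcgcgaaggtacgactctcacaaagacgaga
The first Mbnl1 window holds 38.0% G and C and 1 CpG, with 1 E-box and 2 CCAAT matches. The window at the downstream Mbnl1 start holds 73.6% G and C and 33 CpGs, with 4 GC boxes. Mbnl2 has 57.2% G and C, 10 CpGs, 1 GC box and 2 CCAAT matches. Mbnl3 has 59.2% G and C and 15 CpGs, and these letters are not in its window. The AP-1 letters TGANTCA and the TEAD letters GGAATG were searched as well and are in none of the 4 windows. No motif searched is in all 4 windows.

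Upstream windows could be matched for 43 of the 52 genes, which gave 59 windows. A GC box stood in 67.8% of them against 32.7% of 32851 windows of all genes, and a CCAAT box in 47.5% against 33.9%. CACGTG stood in 6.78% against 6.02%, TGANTCA in 1.69% against 6.75% and GGAATG in 3.39% against 12.6%. The windows of all genes held a median of 52.4% G and C and 6 CpGs, and the shares were not matched for base composition. Windows of 1 gene can overlap, and the matches are a description of letters, not of bound sites.

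**Figure D2:**
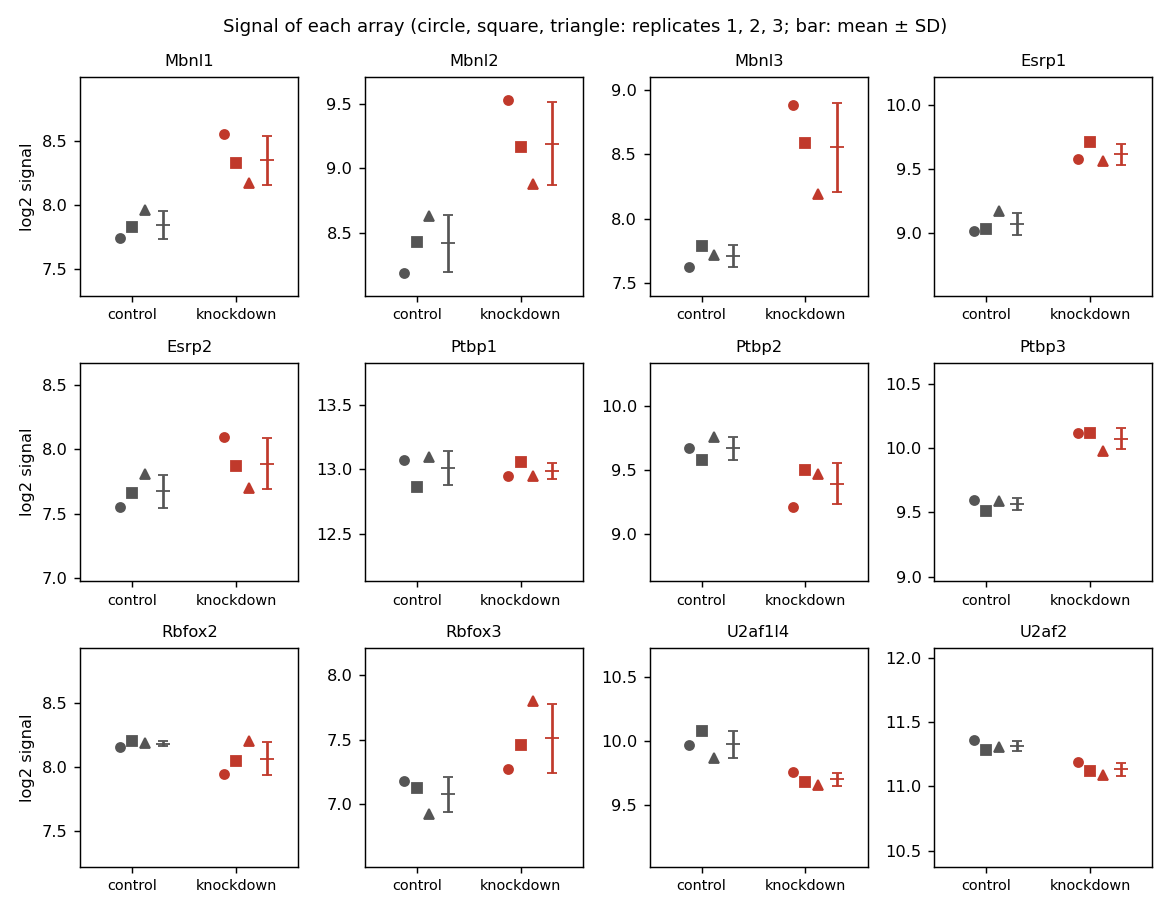
Log2 signal on each of the 6 arrays for 12 of the splicing factors, with 3 control and 3 knockdown arrays per gene. Knockdown arrays lie above control arrays for Mbnl1, Mbnl2, Mbnl3, Esrp1, Ptbp3 and Rbfox3 and below them for Ptbp2, U2af1l4 and U2af2.

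Esrp1, the main epithelial splicing regulator, rose, whereas its paralogue Esrp2 did not pass. Esrp1 was measured at 9.58, 9.71 and 9.56 after knockdown and at 9.02, 9.03 and 9.17 in controls. The groups did not overlap, and the difference was 0.54 with an SE of 0.07, or 1.46-fold (limma adjusted p = 0.000831). Esrp2 gave 8.10, 7.87 and 7.70 against 7.55, 7.66 and 7.81, a difference of 0.22 (95% interval -0.03 to 0.47, limma adjusted p = 0.199), and its groups overlapped. Whether the paralogues differ in their response was not tested. Of 11 epithelial markers 8 rose, beside 12.9% of all genes. The mean signal of the list was 9.41 to 9.49 in controls and 10.52 to 10.65 after knockdown. Krt8 and Krt18 are in both this list and the trophectoderm list. Cdh1, which encodes E-cadherin, differed by 0.19 and did not pass (limma adjusted p = 0.0848). Of 8 mesenchymal markers 1 rose (Cdh2, by 0.47), 2 fell (Vim and Zeb1, by 0.55 and 0.62) and 5 did not pass. This is 37.5% called beside 24.2% of all genes. The part of the epithelial and trophectoderm markers in the Esrp1 result was not tested.

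The 3 polypyrimidine tract-binding genes gave different results. Ptbp1, the widely expressed repressor of neural exons, was measured at 12.95, 13.06 and 12.95 after knockdown and at 13.07, 12.86 and 13.10 in controls. These values overlap, and the difference of -0.02 had a 95% interval from -0.21 to 0.16 (limma adjusted p = 0.875). Ptbp3, a paralogue first described in blood cells, gave 10.12, 10.12 and 9.98 against 9.60, 9.51 and 9.59. It rose by 0.51 with an SE of 0.07, or 1.42-fold (limma adjusted p = 0.000822), and its groups did not overlap. The other probe sets of Ptbp3 were dimmer, differed by 0.38 and 0.51 and did not pass. Ptbp2, the neural paralogue whose RNA Ptbp1 is known to destabilise by exon skipping, gave 9.21, 9.50 and 9.47 against 9.67, 9.58 and 9.76. Its knockdown arrays were all lower, and the difference of -0.28 just missed the threshold (limma adjusted p = 0.0577).

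Among the RBFOX genes, whose proteins recognise UGCAUG beside exons of brain, heart and muscle, only Rbfox3 passed. Rbfox3, known as the neuronal antigen NeuN, was measured at 7.27, 7.46 and 7.80 after knockdown and at 7.18, 7.12 and 6.92 in controls. Its arrays did not overlap, by a margin of less than 0.1 between knockdown replicate 1 and control replicate 1. The difference was 0.44 with an SE of 0.13, or 1.35-fold (limma adjusted p = 0.0396). It no longer passed when knockdown replicate 2 or 3 or any of the control replicates was left out, with limma adjusted p from 0.0615 to 0.124, nor after a repeated quantile normalisation (0.0621). Averaged over its 3 probe sets the difference was 0.16 (limma adjusted p = 0.227). Rbfox2, the member most studied in embryonic stem cells, gave 7.95, 8.05 and 8.20 against 8.16, 8.20 and 8.19, a difference of -0.12 with overlapping groups (limma adjusted p = 0.323). Rbfox1, at a mean signal of 5.44 in controls, differed by -0.13 (limma adjusted p = 0.529). Of 6 neural markers 2 rose and 2 fell, beside 12.9% and 11.3% of all genes. The part of these markers in the Rbfox3 value was not tested.

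U2af1l4 was the 1 splicing factor of the 52 that fell. It encodes U2AF26, which can take the place of the small U2AF subunit. It was measured at 9.76, 9.68 and 9.66 after knockdown and at 9.97, 10.08 and 9.87 in controls, without overlap. It fell by 0.27 with an SE of 0.07, or 1.21-fold (limma adjusted p = 0.0252). The call was lost when knockdown replicate 2 or 3 or control replicate 1 or 2 was left out, with limma adjusted p from 0.0728 to 0.084. U2af2, the large subunit that binds the polypyrimidine tract, gave 11.19, 11.12 and 11.09 against 11.36, 11.28 and 11.31. All its knockdown arrays were lower, and the difference of -0.18 did not pass (limma adjusted p = 0.0645). U2af1, which reads the AG at the intron end, gave 13.14, 13.28 and 13.32 against 13.38, 13.30 and 13.35, a difference of -0.10 with overlap (limma adjusted p = 0.377).

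None of the 9 SF3 genes passed the limma test, and none had an unadjusted p under 0.05, beside 35% of all genes that did. Their differences ran from -0.13 to 0.03, and their 95% intervals from -0.38 to 0.27. Sf3b1, the subunit that contacts the branch point and is often mutated in myeloid disease, gave 12.13, 12.19 and 12.17 after knockdown against 12.31, 12.18 and 12.36 in controls. Its groups overlapped, with a difference of -0.12 (limma adjusted p = 0.258). Sf3b3 had the lowest difference of the family, -0.13, and Sf3a1 and Sf3b6 the highest, both 0.03.

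None of the 10 SR genes passed the limma test, and 3 had an unadjusted p under 0.05 (Srsf12, Srsf5 and Srsf4), beside 35% of all genes. Srsf1, the founding SR protein, was measured at 13.51, 13.54 and 13.45 after knockdown and at 13.53, 13.44 and 13.52 in controls. The difference of 0.00 had a 95% interval from -0.14 to 0.15 (limma adjusted p = 0.980). Srsf3, a small SR protein that also takes part in mRNA export, gave 13.30, 13.27 and 13.28 against 13.25, 13.32 and 13.38, a difference of -0.03 (limma adjusted p = 0.761). The arrays of both genes overlapped between the groups. Srsf5 gave 13.24, 13.10 and 13.04 against 13.33, 13.32 and 13.34. Its knockdown arrays were all lower, and so were those of Srsf4, with differences of -0.20 and -0.21 (limma adjusted p = 0.0662 and 0.101). Srsf12 had the lowest adjusted p of the family, 0.0507 by limma, for a difference of 0.30. Its signals, 4.38, 4.50 and 4.13 against 4.02, 4.09 and 4.01, lie under the lower quartile of every array, which was 4.65 to 4.70. Srsf2, Srsf6, Srsf9, Srsf10 and Srsf11 differed by between -0.08 and 0.02.

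None of the 19 hnRNP genes passed the limma test, and 3 had an unadjusted p under 0.05, beside 35% of all genes. Of the 19, 18 differed by less than 0.2 in either direction, and the 95% intervals of the family ran from -0.39 to 0.32. Hnrnpa1, which represses exons in competition with SR proteins, gave 12.16, 12.12 and 12.13 after knockdown against 12.14, 12.17 and 12.17 in controls, a difference of -0.02 (limma adjusted p = 0.821). Its brightest probe set is of a kind that can cross-hybridise with related sequences, and Hnrnpa1 has many retrocopies, so the value is uncertain. Hnrnpa2b1, its close relative, gave 13.57, 13.57 and 13.54 against 13.56, 13.65 and 13.65, a difference of -0.06 (limma adjusted p = 0.544). Hnrnpk differed by 0.00 and Hnrnpab by -0.02. The 3 with an unadjusted p under 0.05 were Hnrnph1 and Hnrnph3, which bind G-rich stretches, and Hnrnpd, which binds AU-rich elements. Their differences were -0.22, -0.19 and -0.14 (limma adjusted p = 0.0672, 0.0803 and 0.137), with every knockdown array under every control array. That held for 6 of the 19 hnRNP genes and the reverse for 1, while 38.3% of all genes were without overlap in either direction. Hnrnpf and Hnrnpu had the highest differences, 0.12 and 0.14 (limma adjusted p = 0.224 and 0.25). Averaged over their probe sets both passed, at 0.20 and 0.28 (limma adjusted p = 0.0295 and 0.0274). The brightest set of Hnrnpf is also of the kind that can cross-hybridise, and without such sets Hnrnpf differed by 0.31 and passed (limma adjusted p = 0.00993).

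The 38 SR, hnRNP and SF3 genes together had a median difference of -0.06, and 26 were below 0. Of the 52 splicing factors 33 were below 0, which is 63.5% against 53.8% of all genes. The knockdown arrays lay above the control arrays without overlap in 8 of the 52 and below them in 11, and the groups overlapped in 33. Of all 18193 genes, 3406 were higher and 3565 lower without overlap, together 38.3%. Of the 991 genes at or above the median signal of the 52, 196 were higher and 289 lower, together 48.9%. With an intensity trend and a robust variance together, the count that fell went from 1 to 8. The count that rose went from 6 to 7, with Srsf12 added (limma adjusted p = 0.0497). All genes called went from 4404 to 4780 of 18193 with that setting. The genes added to those that fell were Srsf4, Srsf5, Hnrnpd, Hnrnph1, Hnrnph3, Ptbp2 and U2af2, with limma adjusted p between 0.00807 and 0.0485. The size of these differences, between -0.14 and -0.28, did not change with that setting.

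**Figure D3:**
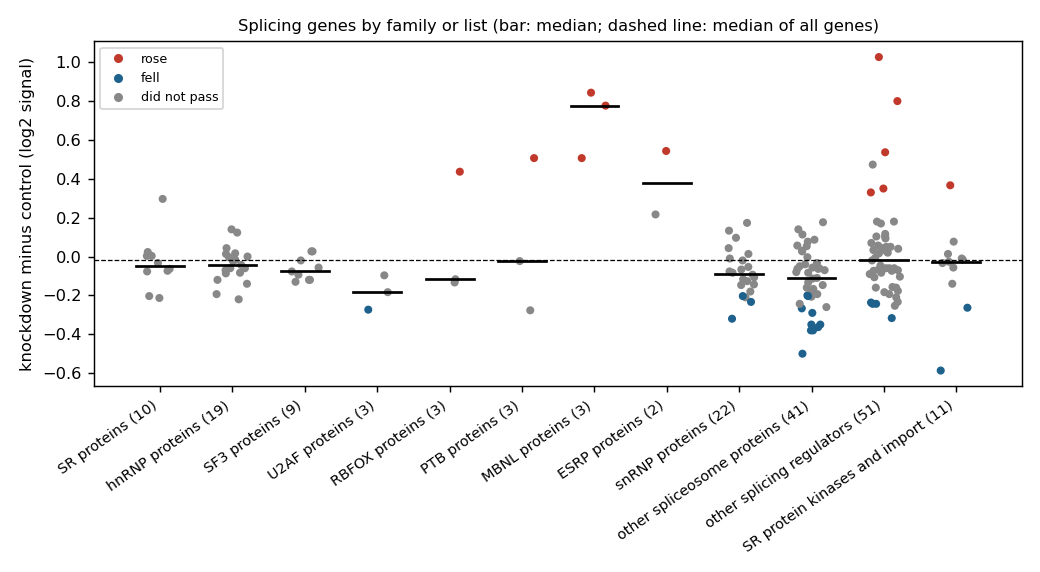
Difference in log2 signal, knockdown minus control, of each gene in the splicing factor families and in the lists of other splicing genes, with the median of each group as a bar and the median of all genes as a dashed line. The medians run from -0.18 for the 3 U2AF genes to 0.78 for the 3 MBNL genes, with the SR genes at -0.05 and the hnRNP genes at -0.04.

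The 52 genes were covered by 157 probe sets, of which 11 rose and 5 fell with p adjusted over all 45037 probe sets. This is 10.2% called beside 14.6% of all probe sets, of which 7.82% rose and 6.76% fell. The groups were without overlap in 21 of the 157 upwards and 29 downwards. Of all 45037 probe sets, 6412 were without overlap upwards and 7299 downwards, together 30.4%. Among the 105 that were not the brightest of their gene, 6 rose and 4 fell, so several genes had probe sets with different results. Srsf3 had 2 of 6 sets that fell, by 0.32 and 0.27 (limma adjusted p = 0.0203 and 0.031), and all 6 differed in the same direction. Sf3b1 had 1 of 4 sets that fell, by 0.39 (limma adjusted p = 0.0223), and Sf3a1 1 of 4, by 0.33 (limma adjusted p = 0.026). In the opposite direction, Hnrnpf had 2 of 4 sets that rose, by 0.31 and 0.30 (limma adjusted p = 0.0189 and 0.0142). Hnrnpu had 1 of 5 that rose, from 8.02 ± 0.05 to 8.54 ± 0.02 (limma adjusted p = 9.52e-04), with all 5 above 0. The sets of Srsf1 differed by -0.38 to 0.37 and those of Hnrnpdl by -0.26 to 0.32, and 0 of the 7 of each gene passed. A probe set can report 1 of several transcript forms, and which forms these sets detect was not examined here. None of the 3 probe sets of Rbfox3 passed over all probe sets (limma adjusted p = 0.0623 for the brightest).

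**Figure D4:**
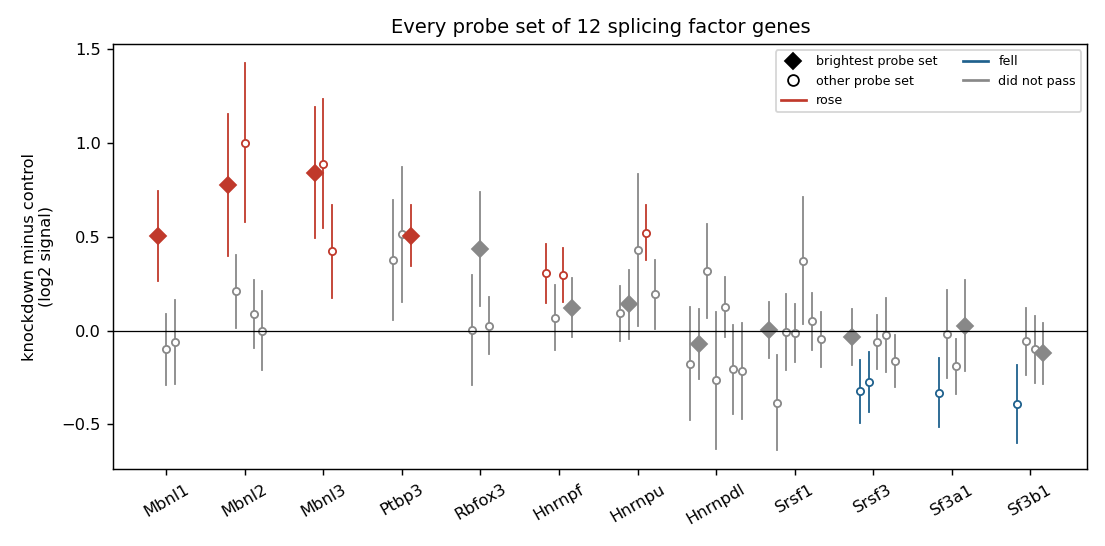
Difference in log2 signal with its 95% interval for every probe set of 12 splicing factor genes, with a diamond for the brightest set of each gene. All 3 sets of Mbnl3 lie above 0, from 0.42 to 0.89, whereas the sets of Srsf1 lie on both sides of 0.

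The rest of the splicing machinery was described by 4 lists of other genes, of which 125 of 135 were measured. In these, 6 genes rose and 19 fell, which is 20% called beside 24.2% of all genes (12.9% rose and 11.3% fell), with a median difference of -0.06. Of the 22 snRNP proteins 0 rose and 3 fell, with a median of -0.09; 6 had an unadjusted p under 0.05 by limma, beside 35% of all genes. Lsm6 and Lsm4, of the ring on U6 snRNA, fell by 0.32 and 0.23 (limma adjusted p = 0.00767 and 0.0243). Snrnp200, the helicase that unwinds U4 from U6, fell by 0.20 (limma adjusted p = 0.0484). The Snrnp200 call was lost in 12 of 17 alternative settings, with any 1 array left out among them (limma adjusted p = 0.061 to 0.14). That of Lsm4 was lost without knockdown replicate 1 or 2 or control replicate 1 or 2 (0.0611 to 0.0917). Lsm2 and Lsm7 differed by -0.21 and -0.15 and did not pass (limma adjusted p = 0.0693 and 0.135).

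Of 41 other spliceosome proteins 0 rose and 10 fell, which is 24.4% called beside 24.2% of all genes and 11.3% that fell, with a median of -0.11; 19 had an unadjusted p under 0.05 by limma, beside 35% of all genes. Dhx38 and Dhx16 are helicases that remodel the spliceosome at its catalytic steps. Dhx16 gave 12.29, 12.07 and 11.99 after knockdown against 12.58, 12.69 and 12.58 in controls and fell by 0.50 (limma adjusted p = 0.00317). Dhx38 gave 8.96, 8.99 and 8.96 against 9.30, 9.32 and 9.43 and fell by 0.38 (limma adjusted p = 0.00261). Neither helicase had overlapping groups, but the Dhx38 set can cross-hybridise, and without such sets Dhx38 differed by -0.10 and did not pass (limma adjusted p = 0.481). Xab2 and Cdc5l, components of complexes around the catalytic core, fell by 0.38 and 0.27, and the kinase Prpf4b by 0.35 (limma adjusted p = 0.0132, 0.0101 and 0.0116). Averaged over its probe sets, Prpf4b differed by -0.01 and did not pass (limma adjusted p = 0.94). Xab2 just missed the threshold without knockdown replicate 2 or control replicate 1 (limma adjusted p = 0.0502 and 0.0562).

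Of 51 other splicing regulators 5 rose and 4 fell, which is 17.6% called beside 24.2% of all genes, with a median of -0.02. Celf2, a regulator known from muscle and brain whose targets overlap with those of MBNL proteins, gave 7.98, 8.07 and 8.17 after knockdown against 7.13, 7.31 and 7.38 in controls. It rose by 0.80, or 1.74-fold (limma adjusted p = 0.000228). Rbmx, the X-linked hnRNP G, gave 7.06, 7.44 and 7.34 against 6.44, 6.33 and 5.99 and rose by 1.03 (limma adjusted p = 0.000666), although retrocopies of this gene make its signal uncertain. The knockdown arrays of both genes lay above all control arrays, and averaged over probe sets both still passed, with smaller differences of 0.43 and 0.44. Taf15, which encodes an RNA-binding protein, rose by 0.54 and Khdrbs1, or Sam68, by 0.35 (limma adjusted p = 0.01 and 0.00696). The neuronal RNA-binding gene Elavl4 fell by 0.32 (limma adjusted p = 0.0163), a call that was lost without knockdown replicate 3 or control replicate 1 or 2 (0.0516 to 0.0653).

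Among 11 genes for kinases, import factors and a phosphatase (Ppp1ca) that act on SR and hnRNP proteins, 1 rose and 2 fell. This is 27.3% called beside 24.2% of all genes. Clk1, a nuclear kinase that phosphorylates SR proteins, gave 11.20, 11.26 and 11.17 after knockdown against 11.81, 11.74 and 11.84 in controls. It fell by 0.59 with an SE of 0.06, or 1.50-fold (limma adjusted p = 0.000245). Its relative Clk4 fell by 0.26 (limma adjusted p = 0.0223), a call that was lost without knockdown replicate 2 or 3 or control replicate 1 or 3 (0.0616 to 0.0873). Clk3 differed by 0.08 and did not pass (limma adjusted p = 0.458). Tnpo1, the import receptor of hnRNP A1, rose by 0.37 (limma adjusted p = 0.0117), but averaged over its probe sets it differed by 0.06 and did not pass (limma adjusted p = 0.623). Tnpo3, the import receptor of SR proteins, differed by -0.14 and did not pass (limma adjusted p = 0.119). These RNA levels do not measure the phosphorylation or location of the proteins.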

How the data were processed

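Each deposited value is the log2 signal of a probe set on an array, made by the authors with GCOS 1.4 and RMA per the submitters' processing notes. RMA corrects background, normalises arrays by quantiles and summarises probes, which compresses small differences of dim sets. The values were used without further scaling. Of 45101 probe sets, 64 control sets were left out. Names came from the platform annotation, updated through RefSeq (GRCm38.p6). Of the probe sets, 932 had several symbols and 9160 had none and gave no gene. Groups and replicate numbers came from the array titles. limma 3.58.1 (lmFit and eBayes, R 4.3.3, statmod 1.5.0) was fitted over 18193 genes, and separately over 45037 probe sets, with group as the only term, two-sided, with Benjamini-Hochberg adjustment. The script was tested on simulated data. The members and lists were chosen with earlier results of these data known. Apart from the splicing factors and markers, genes named are the 5 with the smallest p in each list. The number of arrays limits the precision. Alternatives were a replicate block, other scalings, variance models, probe-set choices, a minimum fold and leaving out each array.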

Additional observations from a re-analysis of the deposited data

How the results depend on the processing

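The 7 called splicing factors kept their call in 100 combinations of gene and alternative setting and lost it in 19, and none reversed. Mbnl3, Esrp1 and Ptbp3 passed under each of the 17 settings. Not every setting could alter a call, so these counts overstate the number of separate checks. The platform's own symbols gave the same splicing factors. Leaving out sets of the kind that can cross-hybridise kept the brightest set of each called gene. Esrp1 and U2af1l4 have only 1 set to average. The median difference of the 52 genes stayed between -0.06 and -0.03. The count that fell, 1 in the main test, rested on differences near the threshold. It was 2 after a repeated quantile normalisation, 8 with an intensity trend and robust variance, 6 over probe sets above the median level, 3 with array weights, 2 with the mean of probe sets and 0 with a 1.2-fold minimum. All genes called, 4404 in the main test, numbered 4479, 4780, 4437 (of 12027), 5730, 4183 and 1279 under these settings in turn. With 1 array left out, the splicing factors that fell ranged from 0 to 2 and all genes called from 3133 to 3986. The 1.2-fold minimum left 3 that rose, 1279 genes changed in all instead of 4404, and 2 that rose and 1 that fell among other splicing genes. Other splicing genes that rose numbered 10 with the intensity trend and robust variance and 11 with array weights, and those that fell numbered 7 to 14 with 1 array left out, instead of 19. The cause of these changes was not tested.

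Replicate numbers are shared between the groups but did not pair the arrays. Deviations of arrays with the same number correlated at -0.187, -0.261 and -0.102, and no array correlated best with its own number. Knockdown replicates 1, 2 and 3 correlated at 0.273, 0.284 and 0.215 with control replicates 2, 3 and 1, and all other pairs were below 0. A link between arrays of different numbers was not modelled. With the replicate number as a block, 0 splicing factors fell and 6 of the 52 rose (Srsf12 in place of Rbfox3), other splicing genes that fell numbered 11, and 3496 genes changed in all.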

Other observations

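Probe sets listed under several symbols entered no gene. The 3 sets listed for Hnrnpa1 with its copies differed by 0.00, -0.01 and -0.01, and the 4 listed for Hnrnpa3 with Gm6793 by -0.01, -0.02, -0.08 and 0.08. The 2 sets listed for U2af1l4 with Igflr1 differed by -0.04 and 0.05. None of the 9 passed over all probe sets by limma.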
